A study of Homo sapiens with 6 samples.

Results

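Metallothioneins are short, cysteine-rich proteins that bind zinc and copper and sequester cadmium, and the kidney proximal tubule is known as a site where they hold heavy metals. When free zinc rises, the transcription factor MTF1 enters the nucleus and binds metal response elements in the promoters of the MT1 and MT2 genes. Glucocorticoids and oxidative stress are also known to raise their transcription. In order to examine this family, the genes MT1A, MT1E, MT1F, MT1G, MT1H, MT1L, MT1M, MT1X, MT2A and MTF1 were looked up by symbol in the counts table, and 8 of these 10 were found among its 26899 genes. MT1H and MT1L were not analysed here. Of the 8 genes, 6 had enough reads to be tested (MT2A, MT1E, MT1F, MT1X, MT1M and MTF1), while MT1G and MT1A did not pass the low-count filter.

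The libraries were polyadenylated RNA of HK-2, an established human kidney proximal tubule line transformed with human papillomavirus 16. Of the 6 libraries, 3 were labelled wild type in their titles and shCtrl in their descriptions, and 3 were labelled ANXA2 knockdown and shANXA2. All were grown in the same serum-containing medium, and plasmids were delivered by lipid transfection. The labels do not say whether the replicates came from separate cultures, so p-values measure only the spread between these libraries, which may be technical.

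Depth ranged from 24231267 to 34561675 counted reads. In the control label the targeted gene, ANXA2, averaged 1598 ± 119 CPM (SD, n = 3), and in the knockdown label it averaged 1539 ± 21.3 CPM (SD, n = 3), where CPM is the read count scaled by library size after TMM scaling. The log2 fold change was -0.05 with a 95% interval of -0.22 to 0.11 (edgeR adjusted p 0.848), and leaving out 1 library moved it between -0.11 (control replicate 2) and -0.02 (control replicate 3). A knockdown was not seen in the transcript, and the groups are named here by their labels alone. Of the 10 proximal tubule markers examined, GGT1 and PAX8 carried nearly all reads and 2 of 10 exceeded a mean of 1 CPM. Over the 6 libraries PAX8 had 97308 reads and GGT1 had 44291. SLC34A1 and SLC5A2 had 81 reads each, AQP1 had 4 and LRP2 had 1, so the markers did not all go the same way.

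The MT1 and MT2 genes lie side by side. In GRCh38 (GENCODE release 44) the 7 measured MT genes occupy 75.61 kb of chromosome 16, from 56608584 to 56684196, and 6 of the 7 lie on the plus strand. MT2A comes first (56608584 to 56609497), followed by MT1E (56625475 to 56627112), MT1M (56632659 to 56633981), MT1A (56638666 to 56640087), MT1F (56657731 to 56660698), MT1G on the minus strand (56666730 to 56668065) and MT1X (56682470 to 56684196). All 7 are protein-coding. MTF1 lies elsewhere, at 37809574 to 37859592 of chromosome 1 (minus strand).

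The promoter sequences are shown because the metal response element is the feature through which MTF1 is known to act on this family. RefSeq promoters were matched for 4 of the 10 genes (MT2A, MT1X, MT1H and MTF1, build GRCh38.p14). The 250 bases before the annotated transcript start of the most abundant paralogue and of MT1X are given here, 5′ to 3′ on the plus strand, with matches to the metal response element core in capitals. The core was searched as TGCACNC or TGCGCNC on both strands.
MT2A, chr16:56608334-56608583: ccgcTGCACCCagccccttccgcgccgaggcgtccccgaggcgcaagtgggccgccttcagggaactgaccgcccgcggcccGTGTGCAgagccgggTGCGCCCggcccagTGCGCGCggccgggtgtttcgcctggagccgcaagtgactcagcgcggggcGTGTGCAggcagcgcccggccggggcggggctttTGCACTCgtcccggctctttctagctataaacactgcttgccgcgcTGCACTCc
MT1X, chr16:56682220-56682469: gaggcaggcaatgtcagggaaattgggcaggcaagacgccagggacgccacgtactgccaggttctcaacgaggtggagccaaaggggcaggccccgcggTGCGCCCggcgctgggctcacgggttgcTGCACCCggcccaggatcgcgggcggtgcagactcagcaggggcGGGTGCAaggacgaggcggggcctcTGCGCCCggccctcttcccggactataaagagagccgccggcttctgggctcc

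MT2A held 7 matches to the core and MT1X held 4. The match nearest to the TATA box core on its upstream side ran from -54 to -48 in MT2A and from -53 to -47 in MT1X, counted in bases from the start. MT1H, whose reads were not analysed here, held 8. The MTF1 promoter held 0. Among 35116 RefSeq promoters of the same 250 bases, 24.8% held at least 1 match, 1.58% held at least 3, and 0.0313% held as many as MT2A. The TATA box core (TATAAA) was matched once in MT2A and once in MT1X, against 10.7% of all promoters with a match. MT2A also held 1 AP-1 site (TGANTCA, palindromic, found in 6.57% of promoters). The GC box core (GGGCGG, both strands, found in 42.6% of promoters) was matched 2 times in MT2A, 2 times in MT1X and 1 time in MTF1. In MT1X the GC box core at -82 to -77 overlapped the metal response element core at -78 to -72. A match describes letters and does not show that a factor bound there.

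**Figure D1:**
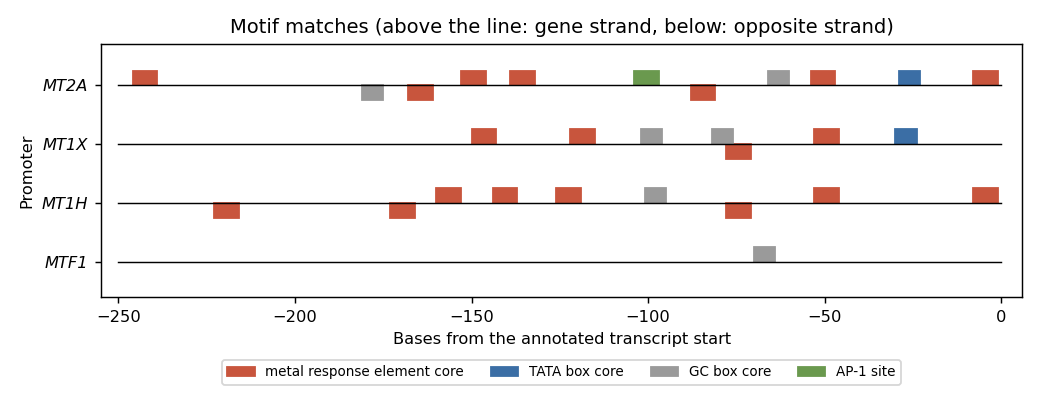
Positions of motif matches in the 250 bases before the annotated start of MT2A, MT1X, MT1H and MTF1 (x axis, bases from the start; blocks above the line are on the gene's strand, those below on the opposite strand). The red blocks, matches to the metal response element core, number 7, 4, 8 and 0.

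To rank the paralogues in HK-2 cells, their levels were compared per length, as the FPKM deposited by the authors (reads scaled by transcript length and library size). MT2A, the main MT2 isoform and the most widely expressed human metallothionein, was at 806.1, 1735 and 1751 FPKM in control replicates 1, 2 and 3 and at 1736, 1520 and 1148 FPKM in knockdown replicates 1, 2 and 3. Control replicate 1 was lowest, the groups overlapped, and the mean of 1449 ± 391 FPKM (SD, n = 6) placed MT2A at rank 38 of 26803 listed genes. MT1E, an MT1 isoform that binds metals through the same cysteine clusters, was at 280.6, 405.4 and 469.4 FPKM in the control replicates and at 448.0, 404.5 and 345.6 FPKM in the knockdown replicates, with a rank of 143 by its mean of 392.2 ± 69.3 FPKM (SD, n = 6).

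The next 3 paralogues formed a lower tier. MT1F was at 65.1, 77.2 and 97.5 FPKM in the control replicates and at 101.6, 94.1 and 71.3 FPKM in the knockdown replicates. MT1X was at 45.9, 57.7 and 65.4 FPKM and at 71.8, 77.7 and 44.5 FPKM. In the same order, MT1M was at 21.02, 39.7 and 55.9 FPKM and at 41.6, 44.2 and 37.7 FPKM. The groups overlapped for each of the 3, and MT1M was the most uneven, with its highest library (control replicate 3) 2.66 times its lowest (control replicate 1).

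MT1G and MT1A were close to the limit of detection, on a scale where MT2A had 287074 reads over the 6 libraries. MT1G had 1, 30 and 8 reads in the control replicates and 2, 5 and 22 reads in the knockdown replicates (0.46 ± 0.483 FPKM, SD, n = 6). Control replicate 2 and knockdown replicate 3 were its high libraries, 1 in each label. MT1A had 0, 4 and 6 reads and then 4, 3 and 0 reads. A count of 0 allows up to 3 reads, which was 0.123 CPM in control replicate 1 and 0.104 CPM in knockdown replicate 3 and covers counting error only.

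Of the 12 further family members and pseudogenes looked up, 4 (MT1DP, MT1JP, MT1P1 and MT1XP1) had reads, 8 in all, and the rest were not analysed here.

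**Figure D2:**
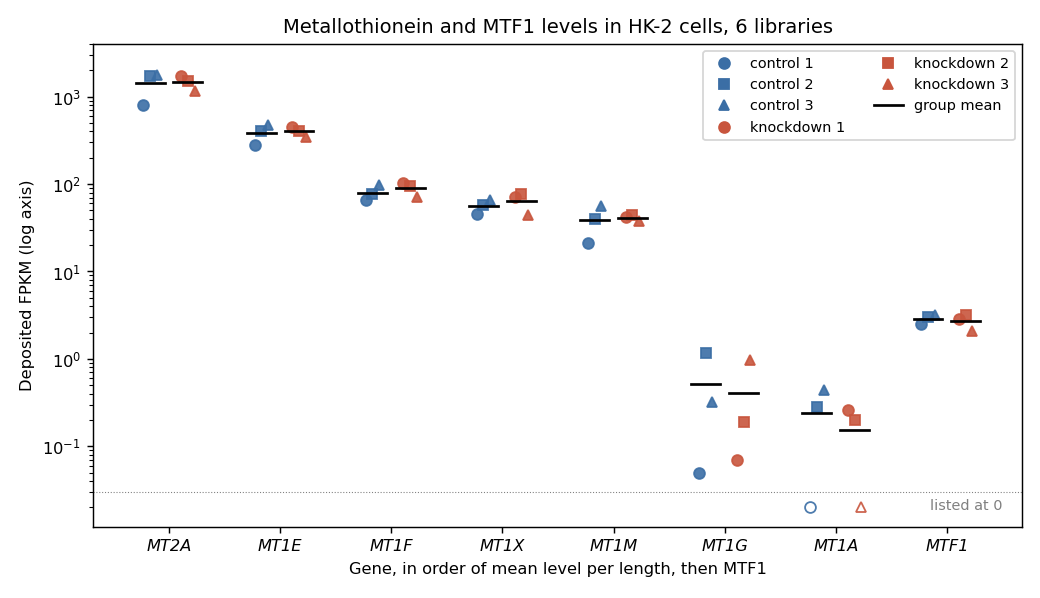
Deposited FPKM (log axis) of the 7 MT genes in order of mean level, and of MTF1, with 1 point per library (blue, labelled control; red, labelled knockdown) and a black line at each group mean. MT2A lies above MT1E in each library, MT1F, MT1X and MT1M form a middle tier, and open symbols mark the 2 libraries in which MT1A was listed at 0.

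The order was then tested inside libraries, by an exact two-sided sign-flip permutation test of the differences in log2(FPKM + 0.01) for all 21 pairs over 6 libraries, where 0.03125 is the smallest p that the test can give. For 20 of the 21 pairs the order was the same in 6 of 6 libraries (exact p 0.03125, Benjamini-Hochberg adjusted p 0.0328). MT2A exceeded MT1E by 3.61-fold on average (1.85 ± 0.20 on the log2 scale, SD, n = 6), between 2.87-fold in control replicate 1 and 4.28-fold in control replicate 2. MT1E exceeded MT1F by 4.64-fold (log2 2.21 ± 0.12, SD, n = 6). MT1F exceeded MT1X by 1.41-fold and MT1X exceeded MT1M by 1.54-fold. Only MT1G and MT1A, the neighbours at the bottom, did not differ beyond their spread, with MT1G higher in 3 of 6 libraries (exact p 0.312).

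The middle tier depended on the gene length. The authors' reads per FPKM unit imply a length for MT1F of 0.734, for MT1X of 0.826 and for MT1M of 0.833 times that of MT2A. With the merged exon lengths of GENCODE release 44 instead (MT2A 914, MT1F 1852, MT1X 1727 and MT1M 511 bases), MT1M moved above MT1F and MT1X, at 68.6 ± 19.1 against 35.4 ± 6.22 and 30.5 ± 6.74 CPM per kilobase (SD, n = 6). MT2A and MT1E stayed first and second under both lengths.

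As a share of all MT reads per length, MT2A made up 71.0% ± 2.93, MT1E 19.7% ± 1.97, MT1F 4.27% ± 0.653, MT1X 3.04% ± 0.533 and MT1M 1.97% ± 0.28 (SD, n = 6). MT2A was 70.9% ± 4.44 of the pool in the libraries labelled control and 71.0% ± 1.35 in those labelled knockdown (SD, n = 3). The 7 genes together took 0.128% to 0.252% of counted reads.

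MTF1, the zinc-sensing activator of the family, was at 2.48, 3.02 and 3.14 FPKM in the control replicates and at 2.88, 3.14 and 2.11 FPKM in the knockdown replicates. Its mean of 2.80 ± 0.416 FPKM (SD, n = 6) gave it rank 8616 of 26803, and its groups overlapped. The MTF1 transcript was thus present in each library at a level per length well below those of MT2A and MT1E, and the protein was not measured.

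To identify differences between the labels, the counts were fitted with the quasi-likelihood test of edgeR across 15299 genes. The test called 0 genes at an adjusted p of 0.05 (0% of those tested, with a smallest adjusted p of 0.131), and 1251 genes (8.18%) had an unadjusted p under 0.05. Of the 6 tested members, 0 were called and 0 had an unadjusted p under 0.05. None of the 8 measured members separated the groups, against 15.6% of the tested genes whose groups did not overlap. DESeq2 also called 0 of them, with 32 genes called in all.

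The 5 tested MT genes had estimates slightly above 0 and MTF1 slightly below. MT2A was at 849.3, 1793 and 1833 CPM in control replicates 1, 2 and 3 and at 1841, 1610 and 1201 CPM in knockdown replicates 1, 2 and 3. Its edgeR log2 fold change of knockdown over control was 0.06 (standard error 0.264, adjusted p 0.962). The 95% interval spanned 0.688-fold to 1.57-fold, so moderate differences in either direction were not detectable with these libraries. For MT1E the log2 fold change was 0.07 with an interval of 0.798-fold to 1.38-fold (edgeR adjusted p 0.925), the narrowest range of the 5.

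MT1X had the largest estimate, a log2 fold change of 0.22 with an interval of 0.836-fold to 1.61-fold (edgeR adjusted p 0.778). It was at 40.1, 49.5 and 56.8 CPM in the control replicates and at 63.2, 68.3 and 38.7 CPM in the knockdown replicates, of which knockdown replicate 3 lay below all controls. For MT1F the log2 fold change was 0.17 (0.855-fold to 1.48-fold, edgeR adjusted p 0.793) and for MT1M it was 0.10 (0.689-fold to 1.66-fold, adjusted p 0.936). MTF1 had -0.07 (0.728-fold to 1.24-fold, adjusted p 0.919).

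Over the 6 tested members the median log2 fold change was 0.08, beside -0.0065 over all tested genes, and 5 of the 6 estimates were above 0, beside 49% of all tested genes. Those 5 were the MT genes, whose levels rose and fell together over the same libraries, so their directions were not independent. MT1G, which was not tested, had 39 reads in the libraries labelled control and 29 in those labelled knockdown (exact two-sided permutation p 0.9, n = 3 per group, where 0.1 is the smallest possible). MT1A had 10 and 7 reads (exact permutation p 0.6, n = 3).

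Single libraries decided the direction for MT2A, MT1E and MT1M. Without control replicate 1 their edgeR log2 fold changes were -0.22, -0.11 and -0.19, with adjusted p-values of 0.558, 0.748 and 0.638, while MT1F (0.05) and MT1X (0.10) stayed above 0. Without knockdown replicate 1 the estimates of MT2A and MT1E were also below 0, at -0.08 and -0.02. Without control replicate 3 the estimates were 0.23, 0.24 and 0.46 for MT2A, MT1E and MT1M, 0.34 for MT1F and 0.34 for MT1X. Without knockdown replicate 3 the estimate of MT1X was 0.43 (edgeR unadjusted p 0.0231, adjusted p 0.58). That of MT1F was then 0.31 (edgeR unadjusted p 0.0952, adjusted p 0.631). For MTF1 the sign turned to 0.09 without knockdown replicate 3.

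**Figure D3:**
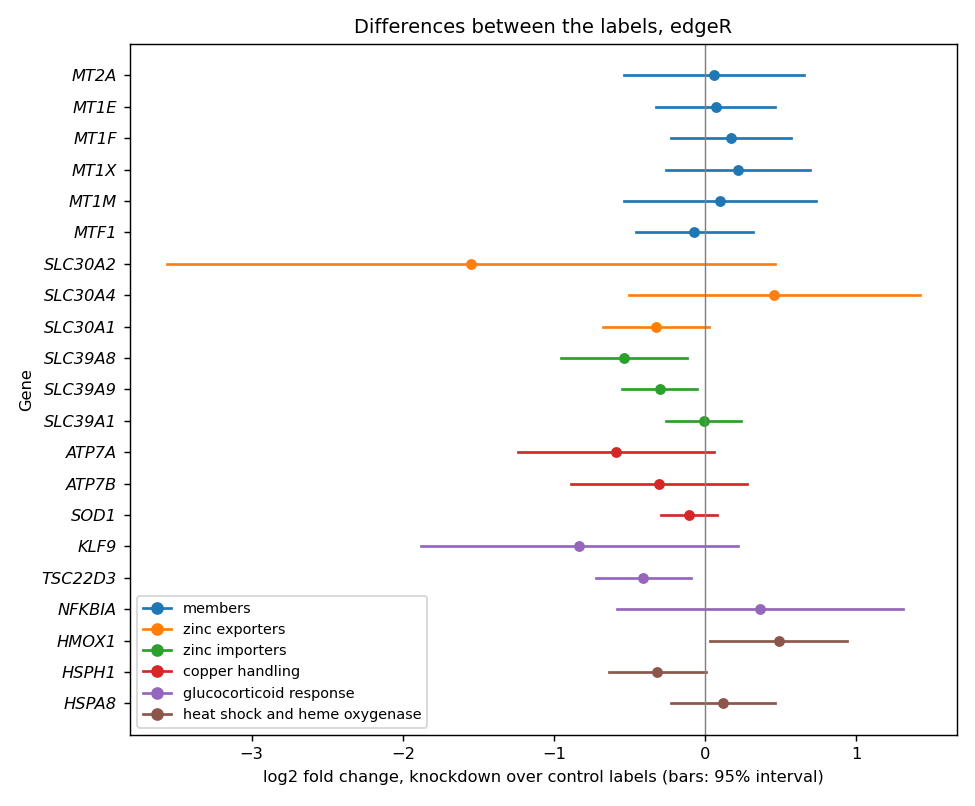
Log2 fold change of the libraries labelled knockdown over those labelled control (x axis), with 95% intervals as bars, for the 6 tested members and for the named genes of 5 further lists. The intervals of the 6 members all include 0.

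The larger pattern among these genes ran across libraries and not between labels. Summed over the 7 MT genes, the level was 1273, 2382 and 2536 CPM in control replicates 1, 2 and 3 and 2525, 2247 and 1713 CPM in knockdown replicates 1, 2 and 3. The group means were 2064 ± 689 CPM for control and 2161 ± 413 CPM for knockdown (SD, n = 3), so the spread inside the control label was 1.99-fold from lowest to highest, far beyond the difference between the means. Control replicate 1 was the lowest library for MT2A, MT1E, MT1F and MT1M, and knockdown replicate 3 was the lowest for MT1X.

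These 2 libraries were also the shallowest, with 24231267 counted reads in control replicate 1 and 28866835 in knockdown replicate 3. The summed level on the log2 scale followed log2 depth with a Pearson r of 0.939 (Spearman rho 0.60) over the 6 libraries, and with r of -0.15 without these 2 libraries, so the relation rests on them. CPM values are already divided by depth, and the part of depth in this pattern was not tested.

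**Figure D4:**
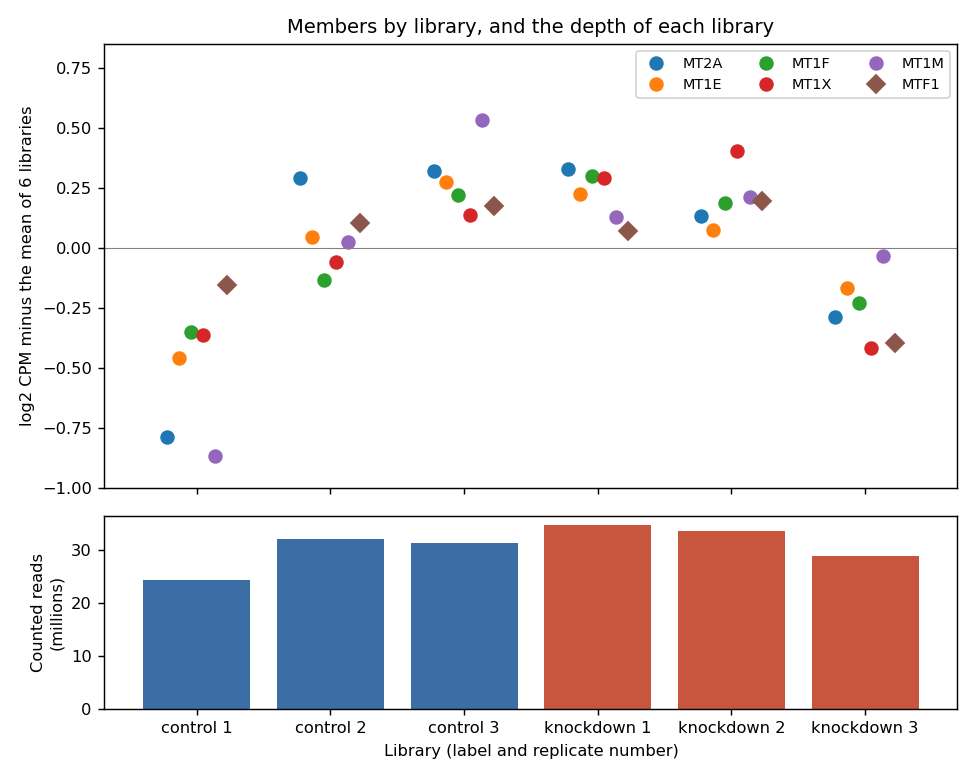
Upper panel, log2 CPM of each tested member minus its mean over the 6 libraries (circles, MT genes; diamonds, MTF1). Lower panel, counted reads of each library. Control replicate 1 and knockdown replicate 3, the shallowest libraries, lie below 0 for all 6 genes.

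Libraries of 1 label differed more in these genes than in most genes of similar abundance. The SD of log2 CPM within labels was 0.50 for MT2A, 0.30 for MT1E, 0.28 for MT1F, 0.36 for MT1X and 0.51 for MT1M, beside a median of 0.22 over all tested genes. Among genes within 4-fold of its abundance, MT2A was more variable than 98.1% (360 genes), MT1M than 97.5%, MT1X than 93.3%, MT1E than 92.6% and MT1F than 87.7%. MTF1 was less set apart, with an SD of 0.25 and a percentile of 73.4.

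The MT genes moved together from library to library. Over the 6 libraries, which share depth and preparation for all genes, Pearson r of log2 CPM was 0.967 for MT1E with MT2A, 0.931 for MT1E with MT1M and 0.923 for MT1F with MT1X, and it was lowest for MT1M with MT1X (0.659). Without control replicate 1 these values were 0.894, 0.773, 0.897 and 0.513. MTF1 had r of 0.865 with MT1X, 0.713 with MT2A and 0.544 with MT1M. These became 0.862, 0.891 and 0.621 without control replicate 1, so those with MT2A and MT1M rose. Read sharing between paralogues was not tested as a part of these values, and 1.24% (MT1F) to 18.7% (MT1X) of the 50-base windows in the transcripts of the measured MT genes also occur in transcripts of another gene. At 100 bases no window was shared for 6 of the 7, and 11.6% were for MT1X, shared with an overlapping long noncoding RNA on the same strand that held 4 reads in all. Only identical windows were counted, so windows that differ by a few bases are not covered. No source used here gives the read length or the handling of reads with several matches.

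Among 8909 other genes with a mean of at least 10 CPM, those whose log2 CPM was most like the summed MT level were PRKCSH (r = 0.9927), SPOCD1 (0.9886), MTRR (0.9856), WDR11 (0.9776) and CXCL8 (0.976). PRKCSH encodes the beta subunit of glucosidase II, MTRR encodes methionine synthase reductase and CXCL8 encodes interleukin 8. The most opposed were COQ3 (-0.9973), UBE2Q1 (-0.9824), EXD2 (-0.9742), TFAP4 (-0.973) and IFFO2 (-0.9702). In all, 173 genes (1.94%) had r above 0.9, so an r above 0.9 over 6 libraries was not particular to the named genes. Without control replicate 1 and knockdown replicate 3 the value was 0.93 for PRKCSH, 0.46 for SPOCD1, 0.63 for MTRR, 0.95 for WDR11 and -0.26 for CXCL8. Among the opposed genes it was -0.89 for COQ3, 0.18 for UBE2Q1, -0.92 for EXD2, -0.66 for TFAP4 and -0.38 for IFFO2, so CXCL8 and UBE2Q1 changed sign.

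Zinc and copper handling genes were examined as the surroundings of the family, and edgeR called 0 of them at an adjusted p of 0.05. Of 10 zinc exporters 7 were tested, with 0 at an unadjusted p under 0.05 (beside 8.18% of all tested genes) and a median log2 fold change of -0.16. The estimate was above 0 for 1 and below 0 for 6 of them, beside 49% above 0 among all tested genes. SLC30A1, the plasma membrane exporter and itself a known MTF1 target, was at 50.9, 51.7 and 41.6 CPM in the control replicates and at 34.8, 33.4 and 47.1 CPM in the knockdown replicates. Its edgeR log2 fold change was -0.32 (standard error 0.156, adjusted p 0.615), and the groups overlapped through control replicate 3 and knockdown replicate 3. Without knockdown replicate 3 the estimate was -0.49. SLC30A2 (-1.55) and SLC30A4 (0.46) had mean levels near or under 1 CPM. Leaving out knockdown replicate 1 gave -2.48 for SLC30A2, and leaving out knockdown replicate 3 gave -1.005 for SLC30A2 and 0.25 for SLC30A4.

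Of 14 zinc importers 11 were tested, and 2 were lower at an unadjusted p under 0.05, beside 4.32% of all tested genes. SLC39A8, a transporter of zinc, manganese and cadmium, was at 35.3, 59.1 and 38.5 CPM in the control replicates and at 29.7, 30.5 and 31.6 CPM in the knockdown replicates. The groups did not overlap, as for 15.6% of all tested genes. Its edgeR log2 fold change was -0.53 (standard error 0.185, adjusted p 0.599), moving to -0.27 without control replicate 2. SLC39A9, also without overlap, was at 42.3 ± 3.69 CPM in control and 34.4 ± 1.25 CPM in knockdown (SD, n = 3). Its log2 fold change was -0.30 with an edgeR adjusted p of 0.605. The most abundant importer, SLC39A1, had -0.01.

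All 12 copper handling genes were tested, with 0 at an unadjusted p under 0.05 (beside 8.18% of all tested genes) and a median log2 fold change of -0.02. ATP7A and ATP7B, the copper-exporting ATPases, had log2 fold changes of -0.59 and -0.31 at group means of 2.27 to 3.98 CPM. Leaving out control replicate 1 gave -0.36 for ATP7A. For ATP7B, leaving out knockdown replicate 3 gave -0.11 and leaving out knockdown replicate 1 gave -0.47. SOD1, the copper and zinc superoxide dismutase, was at 218.1 ± 7.58 CPM in control and 202.5 ± 4.15 CPM in knockdown (SD, n = 3). Its log2 fold change was -0.11 with an edgeR adjusted p of 0.721. The groups of SOD1 and ATP7A did not overlap, as for 15.6% of all tested genes, and those of ATP7B overlapped.

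Genes that respond to glucocorticoids, heat shock or oxidative stress gave no call either, and these signals themselves were not measured. Of 12 glucocorticoid-responsive genes 11 were tested, 1 was lower at an unadjusted p under 0.05, beside 4.32% of all tested genes, and the median log2 fold change was 0.14. That gene was TSC22D3, which encodes the glucocorticoid-induced leucine zipper, at 61.6 ± 11.0 CPM in control and 46.4 ± 1.62 CPM in knockdown (SD, n = 3; edgeR log2 fold change -0.41, adjusted p 0.599), with groups that did not overlap, as for 15.6% of all tested genes. KLF9 had -0.83 at group means of 0.873 and 0.488 CPM, also without overlap. NFKBIA, which encodes the NF-kB inhibitor alpha, had 0.36 with overlapping groups. For NFKBIA, leaving out control replicate 1 gave 0.03 and leaving out control replicate 3 gave 0.95.

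Among the 12 heat shock genes and HMOX1 together, 1 was higher at an unadjusted p under 0.05, beside 3.86% of all tested genes, and the median was 0.10. HMOX1, heme oxygenase 1, which cadmium and oxidative stress are known to induce, was at 55.8, 59.2 and 58.5 CPM in the control replicates and at 77.3, 56.7 and 109.2 CPM in the knockdown replicates. Its edgeR log2 fold change was 0.49 (standard error 0.202, adjusted p 0.605), and 0.21 without knockdown replicate 3, the library with the lowest MT level of its label. HSPH1 (-0.32, and -0.19 without control replicate 2) and HSPA8 (0.12) had overlapping groups.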

How the data were processed

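Gene-level read counts and FPKM values were deposited by the authors for 6 libraries. The deposited counts were not normalised, and the deposited FPKM values, rounded to 2 decimals, were the same counts rescaled by gene and library (2556 genes, largest log2 residual 0.000434). The submitters' processing notes name GRCh38, bcl2fastq, TopHat2 and edgeR. For the counting program, annotation, strand setting and treatment of reads with several matches, no source used here gives a name or setting.

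Counts were tested with edgeR 4.0.16 in R 4.3.3 (quasi-likelihood test, TMM scaling, filterByExpr with a minimum count of 10 and a total of 15, no covariates, two-sided, Benjamini-Hochberg adjustment over 15299 genes, threshold 0.05). CPM was computed on library sizes summed over tested genes and multiplied by the TMM factor. Intervals are 95% from the quasi-likelihood standard error. Alternatives were RLE and library-size scaling, no filter, DESeq2 1.42.0, limma-voom and limma-trend on FPKM (limma 3.58.1), the replicate number as a block and omission of each library. Permutation tests used Python 3.11.15. The edgeR, DESeq2 and limma-voom steps were tested on simulated counts. Replicates differed beyond sampling noise (chi-square per degree of freedom 9.64 to 49.7).

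The members and gene lists were chosen with earlier results of these data known. The text names all members, ANXA2, per list the 2 tested genes with the largest absolute change and the most abundant one, and the 5 genes most like and the 5 most opposed to the summed MT level (Pearson r, mean of at least 10 CPM). Markers of other cell types summed to 2.88 to 6.6 CPM for the 5 leukocyte markers measured, at most 0.394 CPM for endothelium, and 21.2 to 28.4 CPM for fibroblasts, of which LUM carried 4396 of 4476 reads.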

Additional observations from a re-analysis of the deposited data

How the results depend on the processing

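The count of tested members past an adjusted p of 0.05 was 0 under all 14 alternatives, and leaving out 1 library gave 0 to 0. Over all genes edgeR called 0 (1251 at an unadjusted p under 0.05), DESeq2 called 32 and edgeR without the low-count filter called 165 (prior degrees of freedom were then infinite). Leaving out 1 library gave 0 to 4, with the 4 coming without knockdown replicate 2. Without the filter SLC39A8 (-0.53, adjusted p 0.0384) and HMOX1 (0.49, adjusted p 0.0332) passed, within ranges of 0.0384 to 0.988 and 0.0332 to 0.988 over their alternatives.

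Of the members' estimates, 48 under other settings and 30 under the omission of 1 library kept their direction, and 6 under such an omission changed sign. The ranges on leaving out 1 library were -0.22 to 0.23 for MT2A, -0.11 to 0.24 for MT1E, 0.05 to 0.34 for MT1F, 0.06 to 0.43 for MT1X, -0.19 to 0.46 for MT1M and -0.19 to 0.0852 for MTF1, and for the log2 difference of the summed MT level (0.11) -0.20 to 0.29. The number of paralogue pairs with 1 order in each library was 20 throughout, although 5 libraries cannot reach a p under 0.0625. This count does not say which gene of a pair was higher. With the GENCODE lengths it was again 20, but MT1M then lay above MT1F and MT1X instead of below them.

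Replicate numbers showed no sign of pairing the libraries. Deviations of same-numbered libraries had correlations of -0.06, 0.12 and -0.20, and those of differently numbered libraries ranged from -0.23 to 0.22. With so few libraries this check cannot decide whether they were paired. With the replicate number as a block, 0 genes were called (1076 at an unadjusted p under 0.05) and the estimate of MT2A was 0.11. MTRR changed sign to 0.0027 under the block. PRKCSH, with an estimate of 0.0089, changed sign to -0.0147 with library-size scaling and to -0.0048 on both FPKM scales. On leaving out 1 library the other named genes that changed sign ranged from -0.0808 to 0.104 (SLC39A1), -0.0559 to 0.293 (HSPA8), -0.0293 to 0.0349 (PRKCSH), -0.258 to 0.22 (SPOCD1), -0.167 to 0.0807 (MTRR), -0.065 to 0.169 (WDR11), -0.374 to 0.624 (CXCL8), -0.0735 to 0.0595 (COQ3), -0.0509 to 0.0286 (UBE2Q1), -0.15 to 0.0471 (EXD2), -0.149 to 0.0262 (TFAP4) and -0.249 to 0.249 (IFFO2). The cause of these changes was not tested.

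The GENCODE lengths and the alternatives for the summed level were chosen after the data were seen.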
